A study of Mus musculus with 6 samples.

Results

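The 9 genes described here encode the main ligands and receptors of 2 signalling systems of blood vessels, the vascular endothelial growth factor (VEGF) system and the angiopoietin system. They were chosen by name, with earlier results of these data known. They are the ligand genes Vegfa, Angpt1 and Angpt2, the receptor genes Kdr, Flt1, Nrp1, Tek and Tie1, and the phosphatase gene Ptprb. All 9 were found by their Entrez gene ID among 18822 genes with values, and all 9 passed the filter of a mean of at least 1 FPKM, which left 12388 tested genes. Expression was measured by RNA sequencing of renal glomeruli, the capillary tufts that filter the blood, from C57BL/6J mice with diabetic kidney disease. There were 3 libraries of PR3 knockout mice (PR3_KO) and 3 of wild-type mice (WT), and diabetic kidney disease was common to both groups. The sources used here do not give the means by which diabetes was brought about, the construct of the knockout, or the age and sex of the mice. PR3 stands for proteinase 3, the product of Prtn3, which neutrophils store in their granules.

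In the glomerulus, podocytes on the outer side of the filter secrete VEGF-A, which acts across the basement membrane on the capillary endothelium. KDR (VEGF receptor 2) carries most of the endothelial signal, FLT1 (VEGF receptor 1) binds VEGF-A tightly and also exists as a soluble form that acts as a decoy, and neuropilin 1 is a co-receptor. Angiopoietin 1 activates the endothelial receptor TIE2, encoded by Tek, and stabilises vessels. Angiopoietin 2, made by endothelial cells, competes with it in many settings, TIE1 modulates TIE2, and VE-PTP, the product of Ptprb, removes phosphate from TIE2.

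Values are FPKM, fragments per kilobase of transcript relative to all mapped fragments, which are scaled by transcript length and so allow levels to be compared between genes. A log2 fold change here is the mean of log2(FPKM + 1) in PR3_KO less that in WT, a scale on which changes of low genes are understated. Nothing in the labels states that each library is a separate animal, and p-values therefore measure the spread between libraries, which may be technical. Values are per gene, so the soluble and membrane forms of FLT1 and the splice forms of VEGF-A are summed. In these bulk samples fewer cells of a type and less RNA per cell cannot be told apart.

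The sums of FPKM per library were 566772 to 604697 in PR3_KO and 494316 to 543564 in WT. FPKM carry no counts, and depth is known only roughly. Among 53 olfactory receptor genes, of median length 942 nucleotides, the commonest nonzero FPKM was 0.07, or 0.08 in WT 1, which corresponds to about 15200000 or 13300000 fragments if it stands for 1 fragment. Prtn3 was at 0.14, 0 and 0.07 FPKM in PR3_KO and at 0.46, 0.21 and 0.22 FPKM in WT, so few fragments that it is a weak check of the labels. Libraries differed in transcripts of cell type markers. The summed FPKM of 16 proximal tubule markers was 54340 to 71980 in PR3_KO and 10010 to 26700 in WT. It was highest in PR3_KO 1 and lowest in WT 2, with no marker at 0. The single gene Kap made up most of this sum in every library, at 40546 to 57590 FPKM in PR3_KO and 5248 to 18509 FPKM in WT. The summed FPKM of 13 macrophage markers was 127 to 201 in PR3_KO and 849 to 1819 in WT, again with none at 0. The part of these differences in the results below was not tested. None of 20 markers of glomerular endothelium and 18 of podocytes was at 0 in any library. Values above 0 do not measure how pure the glomeruli were, and proximal tubule markers were abundant in every library.

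Transcripts of the endothelial receptors were less abundant in PR3_KO, and those of the ligands VEGF-A and angiopoietin 1 were not past the threshold. Of the 9 genes, 7 fell in PR3_KO and 0 rose (limma, Benjamini-Hochberg adjusted p under 0.05 over all tested genes; 0 rose also at an unadjusted p under 0.05). Over all tested genes 41.1% fell and 11.7% rose. The 7 that fell, Kdr, Flt1, Nrp1, Tek, Tie1, Ptprb and Angpt2, also had no overlap between PR3_KO and WT libraries, which was so, with PR3_KO lower, for 49.1% of all tested genes. The median log2 fold change of the 9 genes was -1.16, against -0.26 over all tested genes. When libraries were rescaled by median-of-ratios size factors, the median of all genes moved to -0.03, and 25.1% of them fell and 22.5% rose. With that scaling the 9 genes still gave 7 lower and 0 higher, at a median of -0.90.

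**Figure D1:**
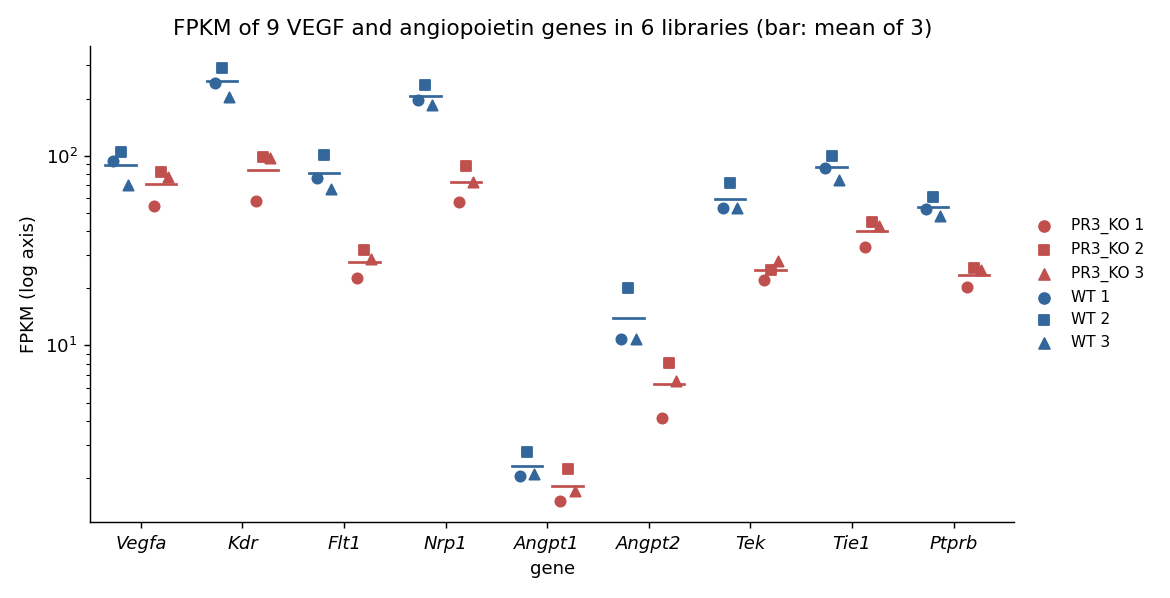
FPKM (log axis) of the 9 genes in each of the 6 libraries, WT in blue and PR3_KO in red, with a marker shape per replicate number and a bar at the mean of 3 libraries. In 7 genes every PR3_KO library lies below every WT library, while for Vegfa and Angpt1 the genotypes overlap; PR3_KO 1 is lowest and WT 2 highest for all 9 genes.

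The VEGF receptors had the largest falls of the 9 genes. Their promoters are shown first, since they are the regulatory DNA next to the transcripts that moved together, with that of Vegfa, which did not pass the test, for comparison. Each is the stretch just upstream of a RefSeq transcription start (GRCm38.p6), 5′ to 3′ on the strand of the gene, and capitals mark GGAA or its reverse complement TTCC, the core recognised by ETS transcription factors, a family central to endothelial gene expression. Kdr is on the minus strand at chr5:75978459-75978705, Flt1 on the minus strand at chr5:147726012-147726261, Nrp1 on the plus strand at chr8:128358823-128359072, and Vegfa on the minus strand at chr17:46032378-46032627.
Kdr: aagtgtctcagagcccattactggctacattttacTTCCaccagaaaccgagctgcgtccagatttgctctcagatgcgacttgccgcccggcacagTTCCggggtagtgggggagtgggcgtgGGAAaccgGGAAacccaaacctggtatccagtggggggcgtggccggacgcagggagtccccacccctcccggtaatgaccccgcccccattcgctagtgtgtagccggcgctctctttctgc
Flt1: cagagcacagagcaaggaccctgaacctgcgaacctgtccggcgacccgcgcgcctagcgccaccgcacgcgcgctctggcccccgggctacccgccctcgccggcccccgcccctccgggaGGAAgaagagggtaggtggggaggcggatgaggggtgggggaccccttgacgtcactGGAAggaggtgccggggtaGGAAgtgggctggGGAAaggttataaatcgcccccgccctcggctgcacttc
Nrp1: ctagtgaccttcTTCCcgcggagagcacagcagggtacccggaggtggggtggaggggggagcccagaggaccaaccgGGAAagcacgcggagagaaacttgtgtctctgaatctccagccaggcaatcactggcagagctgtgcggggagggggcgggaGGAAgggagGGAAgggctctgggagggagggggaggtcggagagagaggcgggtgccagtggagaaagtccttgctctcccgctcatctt
Vegfa: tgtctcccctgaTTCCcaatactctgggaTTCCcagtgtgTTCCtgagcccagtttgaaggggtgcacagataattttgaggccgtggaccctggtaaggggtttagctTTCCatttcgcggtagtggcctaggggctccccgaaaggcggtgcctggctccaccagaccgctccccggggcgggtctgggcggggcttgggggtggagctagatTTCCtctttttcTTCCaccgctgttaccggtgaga

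The window of Kdr was shortened to 247 bases, since GENCODE M21 places the last 3 in an exon. GGAA or TTCC occurred 4 times each in the windows of Kdr, Flt1 and Nrp1, 6 times in that of Vegfa, 2 times in that of Tek and 7 times in that of Tie1, of which GENCODE M21 annotates 212 bases as exon. Over 32851 promoter windows of 250 bases, 93.4% held at least 1 match, with a median of 3. The longer ETS motif CCGGAAGT (2.88% of all windows, both strands), the GATA motif GATAAG (6.55%) and the forkhead motif TGTTTAC (3.17%) had no match in the windows of these 6 genes. The hypoxia response element core ACGTG (16.6% of all windows) occurred once, at bases -211 to -207 of a second Vegfa window upstream of an internal start, of which 218 of 250 bases are annotated as exon. Angpt1, Angpt2 and Ptprb had no entry in the promoter table. The windows of Kdr, Flt1 and Nrp1 lie within the outer bounds of their genes, which also have starts farther upstream. These matches describe the letters of the windows only.

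Kdr, on chromosome 5 from 75932827 to 75979072 (GRCm38.p6), was the most abundant of the 9 genes. Its level was 57.72, 98.17 and 97.71 FPKM in PR3_KO 1, 2 and 3 and 243.51, 291.97 and 204.92 FPKM in WT 1, 2 and 3. The highest PR3_KO library thus lay below the lowest WT library by a wide margin, and PR3_KO 1 lay apart from the other 2. Mean levels were 84.5 ± 23.2 and 247 ± 43.6 FPKM (SD, n = 3 a genotype), 2.92-fold higher in WT. The log2 fold change was -1.56 (SE 0.23; limma, with adjusted p = 0.00163).

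Flt1 lies on the same chromosome, from 147561604 to 147726438. It was at 22.75, 31.70 and 28.67 FPKM in PR3_KO and 76.16, 101.24 and 66.86 FPKM in WT, with no overlap. The means were 27.7 ± 4.55 and 81.4 ± 17.8 FPKM (SD, n = 3 a genotype), and the log2 fold change was -1.51 with an SE of 0.18 (limma, adjusted p = 0.000912). The summed forms of Flt1 were then set against Kdr. The ratio of Flt1 to Kdr FPKM came to 0.394, 0.323 and 0.293 in the PR3_KO libraries and to 0.313, 0.347 and 0.326 in those of WT. On the log2 scale this ratio differed by 0.05 between genotypes (two-sided exact permutation test, p = 0.8, n = 3 a genotype, adjusted over 6 ratios p = 0.8), and the WT values lay inside the range of PR3_KO.

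Nrp1, on chromosome 8 from 128358591 to 128505476, was close to Kdr in level. It was at 57.07, 88.21 and 72.99 FPKM in PR3_KO and 197.27, 237.15 and 184.70 FPKM in WT. The lowest WT library was more than double the highest PR3_KO library. The log2 fold change was -1.51 (SE 0.18; limma, with adjusted p = 0.000913). Neuropilin 1 is also a receptor for class 3 semaphorins and is made by cells other than endothelium.

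The ligand gene Vegfa did not pass the test. On chromosome 17 from 46016993 to 46032377, it was at 54.18, 82.30 and 77.51 FPKM in PR3_KO and 93.67, 104.32 and 70.32 FPKM in WT. WT 3 lay below PR3_KO 2 and 3, so that the genotypes overlapped. The means were 71.3 ± 15.04 and 89.4 ± 17.4 FPKM (SD, n = 3 a genotype), with a log2 fold change of -0.33 (95% CI -0.79 to 0.14, limma, adjusted p = 0.198). After scaling by median of ratios it was -0.06 (95% CI -0.49 to 0.37, limma, adjusted p = 0.792), which leaves room for a fall or a rise of about these sizes. These bulk values do not show which cells made the Vegfa transcripts, and proximal tubule markers were abundant in every library.

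The ratio of Vegfa to Kdr FPKM came to 0.939, 0.838 and 0.793 in the PR3_KO libraries and to 0.385, 0.357 and 0.343 in those of WT. Every PR3_KO library had more than double the ratio of any WT library. On the log2 scale the ratio was higher in PR3_KO by 1.23 (two-sided exact permutation test, p = 0.1, n = 3 a genotype, the smallest that 3 against 3 can give; adjusted over 6 ratios p = 0.2), so this test cannot reach 0.05 here. The ratio was chosen after the values were seen, and the cells that made the Vegfa transcripts are not known. The summed FPKM of podocyte markers was 456 to 720 in PR3_KO and 780 to 1268 in WT. Podxl was the largest single part of this sum, at 159.82 to 225.09 FPKM in PR3_KO and 297.83 to 450.32 FPKM in WT. Of 18 podocyte markers only 8 fell in limma, close to the 41.1% of all tested genes, so a fall of the whole list is not shown. Relative to the mean of 18 such markers on the log2 scale, Vegfa was at 2.18 ± 0.18 in PR3_KO and 1.92 ± 0.32 in WT (SD, two-sided exact permutation test, p = 0.3, n = 3 a genotype), with overlap. Angpt1 was at -2.48 ± 0.07 and -2.85 ± 0.19 on the same scale, 0.36 higher in PR3_KO without overlap (SD, two-sided exact permutation test, p = 0.1, n = 3 a genotype; adjusted over both genes p = 0.2).

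The angiopoietin ligands differed from each other. Angpt1, on chromosome 15 from 42424667 to 42676977, was the least abundant of the 9 genes, at 1.52, 2.22 and 1.71 FPKM in PR3_KO and 2.05, 2.75 and 2.11 FPKM in WT. PR3_KO 2 lay above 2 of the WT libraries. The log2 fold change was -0.23 (95% CI -0.57 to 0.11, limma, adjusted p = 0.211). In the mouse glomerulus this ligand is known from podocytes and mesangial cells.

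Angpt2, on chromosome 8 from 18690263 to 18741562, was at 4.12, 8.08 and 6.53 FPKM in PR3_KO and 10.81, 20.14 and 10.81 FPKM in WT. The groups did not overlap, but the gap between PR3_KO 2 and the lower WT libraries was small beside the spread within WT. The log2 fold change was -1.02 (SE 0.28; limma, with adjusted p = 0.0182), the least precise of the 7. The call was lost without PR3_KO 1 (-0.79, limma, adjusted p = 0.0611), and the fold change was -0.51 without PR3_KO 1 and WT 2 together (limma, adjusted p = 0.0160), the libraries with the most and the least proximal tubule signal.

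The ratio of Angpt2 to Angpt1 FPKM came to 2.71, 3.64 and 3.82 in the PR3_KO libraries and to 5.27, 7.32 and 5.12 in those of WT. All PR3_KO libraries lay below all WT libraries. On the log2 scale with a pseudocount of 1 the ratio differed by -0.79 (two-sided exact permutation test, p = 0.1, n = 3 a genotype, adjusted over 6 ratios p = 0.2).

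The TIE receptors fell together. Tek, on chromosome 4 from 94739086 to 94874976, was at 22.06, 25.05 and 27.78 FPKM in PR3_KO and 52.80, 71.99 and 52.75 FPKM in WT, and its log2 fold change was -1.20 (SE 0.15; limma, with adjusted p = 0.000992). Tie1, on the same chromosome from 118471191 to 118489849, was at 33.18, 44.80 and 42.50 FPKM in PR3_KO and 86.13, 99.88 and 74.46 FPKM in WT. Its log2 fold change was -1.09 (SE 0.15; limma, with adjusted p = 0.00137). In both genes the lowest WT library was well above the highest PR3_KO library.

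Ptprb, on chromosome 10 from 116275502 to 116389538, had the smallest SE of the 9 genes. It was at 20.35, 25.47 and 25.04 FPKM in PR3_KO and 52.60, 60.79 and 48.32 FPKM in WT (-1.16 ± 0.13 SE on the log2 scale; adjusted p = 0.000825 in limma). The phosphatase and the receptor it acts on were at nearly equal FPKM in every library. The ratio of Ptprb to Tek was 0.901 to 1.02 in PR3_KO and 0.844 to 0.996 in WT (log2 difference 0.05, two-sided exact permutation test, p = 0.6, n = 3 a genotype, adjusted over 6 ratios p = 0.72). That of Tie1 to Tek was 1.504 to 1.788 in PR3_KO and 1.39 to 1.63 in WT (log2 difference 0.11, two-sided exact permutation test, p = 0.4, n = 3 a genotype, adjusted p = 0.6). The ratio of Angpt1 to Tek, chosen after the values were seen, was 0.0616 to 0.0886 in PR3_KO and 0.0382 to 0.0400 in WT, without overlap (log2 difference 0.97, two-sided exact permutation test, p = 0.1, n = 3 a genotype, adjusted p = 0.2).

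**Figure D2:**
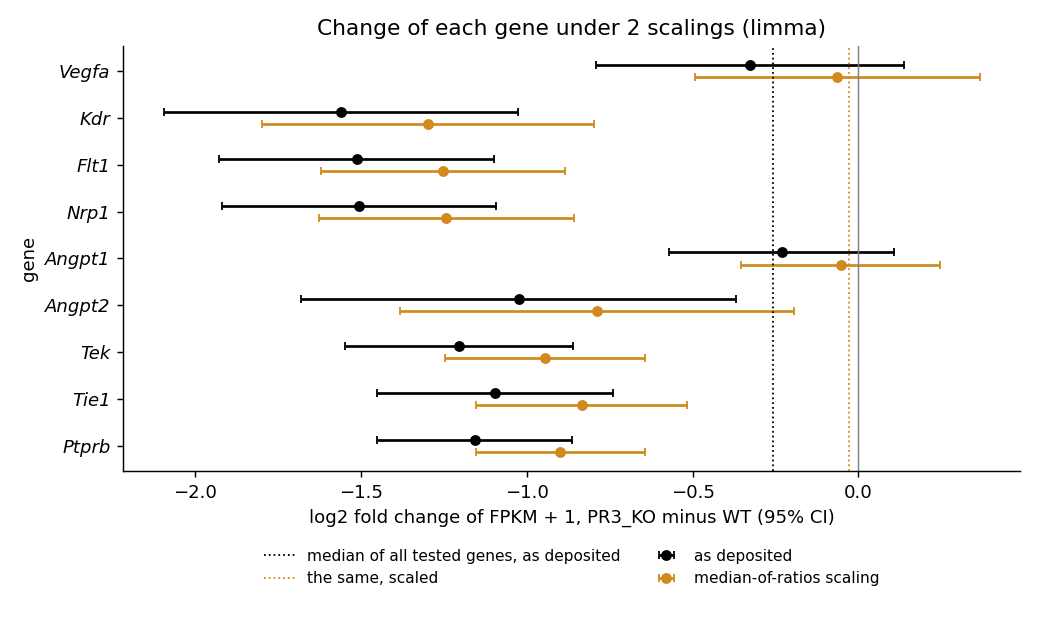
Log2 fold change of FPKM + 1 for each gene, PR3_KO minus WT, with its 95% confidence interval from limma, as deposited (black) and after median-of-ratios scaling (orange); dotted lines mark the median of all tested genes. The intervals of Vegfa and Angpt1 cross 0 under both scalings, and those of the other 7 genes lie below 0 under both.

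The order of levels was largely shared by the genotypes. In WT, Kdr and Nrp1 led at means of 247 and 206 FPKM, and their ranges overlapped although Kdr was higher in 3 of 3 libraries. Vegfa, Tie1, Flt1, Tek and Ptprb followed at 89.4, 86.8, 81.4, 59.2 and 53.9 FPKM, each overlapping its neighbour. Angpt2 at 13.9 FPKM and Angpt1 at 2.30 FPKM lay apart below. In PR3_KO, Vegfa at 71.3 FPKM was level with Kdr and Nrp1 (84.5 and 72.8 FPKM, overlapping ranges) and above Tie1 at 40.2 FPKM without overlap. Flt1, Tek and Ptprb overlapped at 27.7, 25.0 and 23.6 FPKM.

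Markers of the glomerular endothelium were lower in PR3_KO over the whole list. Of 20 markers that are not among the 9 genes, 20 fell, where 41.1% of all tested genes did. With median-of-ratios scaling 19 fell, against 25.1% of all genes, and Plat lost its call (-0.41, limma, adjusted p = 0.12). As deposited, log2 fold changes were -1.99 to -0.67, with the smallest fall in Plat, and the median was -1.30. The summed FPKM of these markers was 1554 to 2193 in PR3_KO and 3770 to 4724 in WT. The transcription factor gene Sox18 had a log2 fold change of -1.90 and the vascular factor gene Egfl7 one of -1.57 (limma, adjusted p = 0.000598 and 0.000684). The 7 genes that fell lay inside this range: 3 markers fell more than Kdr, 4 more than Flt1 and Nrp1, 13 more than Tek and 18 more than Angpt2. Vegfa and Angpt1 lay outside it, as 20 of 20 markers fell more than either. The markers were listed with earlier results of these data known. These bulk values do not show whether their transcripts came from glomerular or from other endothelium.

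Each gene was then set against the mean of these 20 markers in the same library, on the log2 scale. Kdr was at 0.84 ± 0.23 in PR3_KO and 1.09 ± 0.20 in WT (SD, two-sided exact permutation test, p = 0.3, n = 3 a genotype). Flt1, Nrp1, Angpt2, Tek and Ptprb also overlapped between genotypes, with differences of -0.20, -0.19, 0.29, 0.11 and 0.16 (two-sided exact permutation test, p = 0.2 to 0.4, n = 3 a genotype). Tie1 was higher in PR3_KO by 0.22 without overlap, at -0.18 ± 0.03 against -0.40 ± 0.18 (SD, two-sided exact permutation test, p = 0.1, n = 3 a genotype). Vegfa and Angpt1 were higher by 0.99 and 1.08 without overlap (two-sided exact permutation test, p = 0.1, n = 3 a genotype). Adjusted over the 9 genes these p-values were 0.3 to 0.4, and the permutation test of 3 against 3 libraries cannot go below 0.1 unadjusted. The marker mean itself differed by -1.31, PR3_KO minus WT, and its markers were listed with earlier results known. The higher relative levels of Vegfa and Angpt1 thus restate the fold changes above and are no further support.

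**Figure D3:**
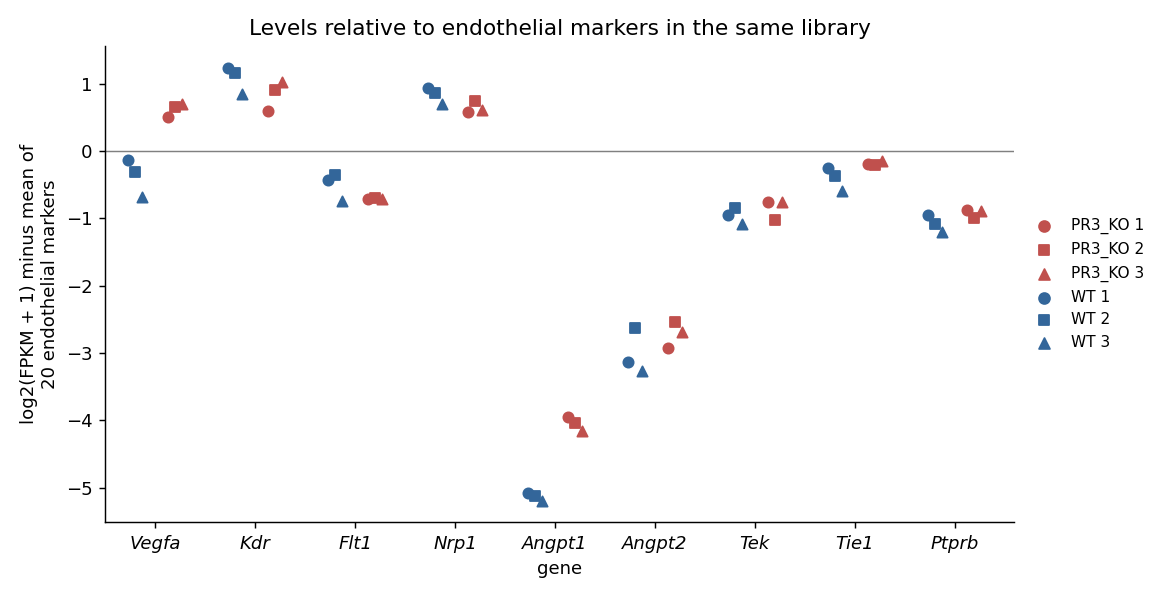
Log2(FPKM + 1) of each gene minus the mean of 20 glomerular endothelium markers in the same library, for 3 WT (blue) and 3 PR3_KO (red) libraries. Kdr, Flt1, Nrp1, Angpt2, Tek and Ptprb overlap between genotypes, whereas Vegfa, Angpt1 and Tie1 are higher in every PR3_KO library. The marker mean itself differed by -1.31, PR3_KO minus WT.

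Of 6 other ligands and receptors of the VEGF family, all tested, 2 fell and 1 rose, at a median of -0.53. With so few genes these shares are near those over all tested genes, 41.1% and 11.7%. Vegfb, a ligand of FLT1 but not of KDR that is abundant in oxidative tissues, rose from 36.00, 35.71 and 36.64 FPKM in WT to 61.97, 51.19 and 58.24 FPKM in PR3_KO (0.64 ± 0.10 SE on the log2 scale; adjusted p = 0.00207 in limma). The WT libraries were nearly equal for this gene and all lay below PR3_KO. Flt4, the VEGF receptor 3 gene, was at 5.35, 8.54 and 7.95 FPKM in PR3_KO and 16.17, 21.70 and 13.78 FPKM in WT (log2 fold change -1.14, limma, adjusted p = 0.00319). The 4 markers of lymphatic endothelium, where this receptor is best known, summed to 0.75 to 0.98 FPKM in PR3_KO and 1.28 to 1.77 FPKM in WT, with Ccl21a at 0 in some libraries. The co-receptor gene Nrp2 fell as well (log2 fold change -1.09; limma, adjusted p = 0.00237). Vegfc, Vegfd and Pgf had log2 fold changes of -0.08, -0.65 and -0.41 and did not pass (limma, adjusted p = 0.727, 0.0532 and 0.0623).

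Of 8 other genes of the angiopoietin and TIE pathway, 6 were tested, of which 5 fell and 0 rose (limma, median -1.05). Over all tested genes 41.1% fell and 11.7% rose. The counts of 5 and 0 were the same with median-of-ratios scaling, where 25.1% of all genes fell. Rasip1, a regulator of endothelial junctions and lumen formation, fell from 55.4 ± 5.16 to 19.5 ± 2.47 FPKM (SD, n = 3 a genotype, log2 fold change -1.46, limma, adjusted p = 0.000633). Adam17 and Adam10, which encode proteases that shed surface receptors, fell, with -1.04 and -0.88 on the log2 scale (adjusted p by limma = 0.000910 and 0.00120). The adaptor gene Dok2 fell (log2 fold change -1.26; limma, adjusted p = 0.00114). It binds TIE2 and is also expressed in myeloid cells, and all 13 macrophage markers fell, at a median of -2.79. Foxo1, a transcription factor restrained by TIE2 signalling, was at 23.60, 16.69 and 15.37 FPKM in PR3_KO and 21.92, 21.24 and 20.15 FPKM in WT (limma, adjusted p = 0.294). PR3_KO 1 was the highest of all 6 libraries for this gene, although it was the lowest for each of the 9. Angpt4 and Svep1 were under the filter.

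Among 31 tested genes of signal transduction below VEGF receptor 2, 23 fell and 1 rose, where 41.1% and 11.7% of all tested genes did. With median-of-ratios scaling 12 fell and 5 rose, against 25.1% and 22.5% of all genes, so that this count depends on the scaling. The median was -0.52 as deposited and -0.28 scaled. Among those with the smallest adjusted p were Yes1, Nck1 and Ptk2, which encode a SRC family kinase, an adaptor and focal adhesion kinase. Their log2 fold changes were -1.13, -1.16 and -0.92 (limma, adjusted p = 0.000684, 0.000935 and 0.000995), and with the scaling they still fell (-0.89, -0.91 and -0.67; limma, adjusted p = 0.00151, 0.00213 and 0.00243). Src itself, named after its values were seen, was the member that rose (log2 fold change 0.47, limma, adjusted p = 0.00814). Most genes of this list are expressed in many cell types.

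Genes known to respond to VEGF in endothelial cells fell in 9 of 11 tested cases, counting Angpt2, and 0 rose (limma; median -1.02), where 41.1% of all tested genes fell. With median-of-ratios scaling 6 fell, against 25.1% of all genes, and Esm1, Apln and Dll4 lost their calls (adjusted p by limma = 0.0615, 0.0768 and 0.0770). Mef2c, a transcription factor gene, was at 2.85, 4.64 and 4.57 FPKM in PR3_KO and 12.10, 14.45 and 12.58 FPKM in WT (log2 fold change -1.502, limma, adjusted p = 0.000825). The genotypes were far apart for this gene. Nr4a1, an orphan nuclear receptor and immediate early gene, Hlx, a homeobox gene, and Plvap, which encodes the diaphragm protein of fenestrae, fell, with -1.21, -1.39 and -1.25 on the log2 scale (adjusted p by limma = 0.00368, 0.00470 and 0.00579). The count of 9 was 5 without PR3_KO 1. Rcan1, a calcineurin inhibitor and named after its values were seen, averaged 53.8 ± 9.43 FPKM in PR3_KO and 49.5 ± 4.06 FPKM in WT (SD, n = 3 a genotype, limma, adjusted p = 0.562).

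Of 8 tested oxygen-sensing genes upstream of Vegfa, 3 fell and 1 rose, at a median of -0.20. These shares are close to the 41.1% lower and 11.7% higher over all tested genes, so the count sets the list apart in neither direction. Epas1, which encodes HIF-2α, was at 87.63, 115.58 and 97.99 FPKM in PR3_KO and 188.67, 238.80 and 163.87 FPKM in WT (log2 fold change -0.96, limma, adjusted p = 0.00318). Hif1a, which encodes HIF-1α, and its partner gene Arnt fell, with -0.67 and -0.48 on the log2 scale (adjusted p by limma = 0.00272 and 0.0117), the latter no longer past the threshold once scaled by median of ratios (-0.24; limma, adjusted p = 0.0862). Egln3, a prolyl hydroxylase gene that HIF induces, rose from 8.95, 5.30 and 6.88 FPKM in WT to 13.23, 12.82 and 21.35 FPKM in PR3_KO (log2 fold change 1.05, limma, adjusted p = 0.00701). All 3 PR3_KO libraries exceeded all WT libraries.

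**Figure D4:**
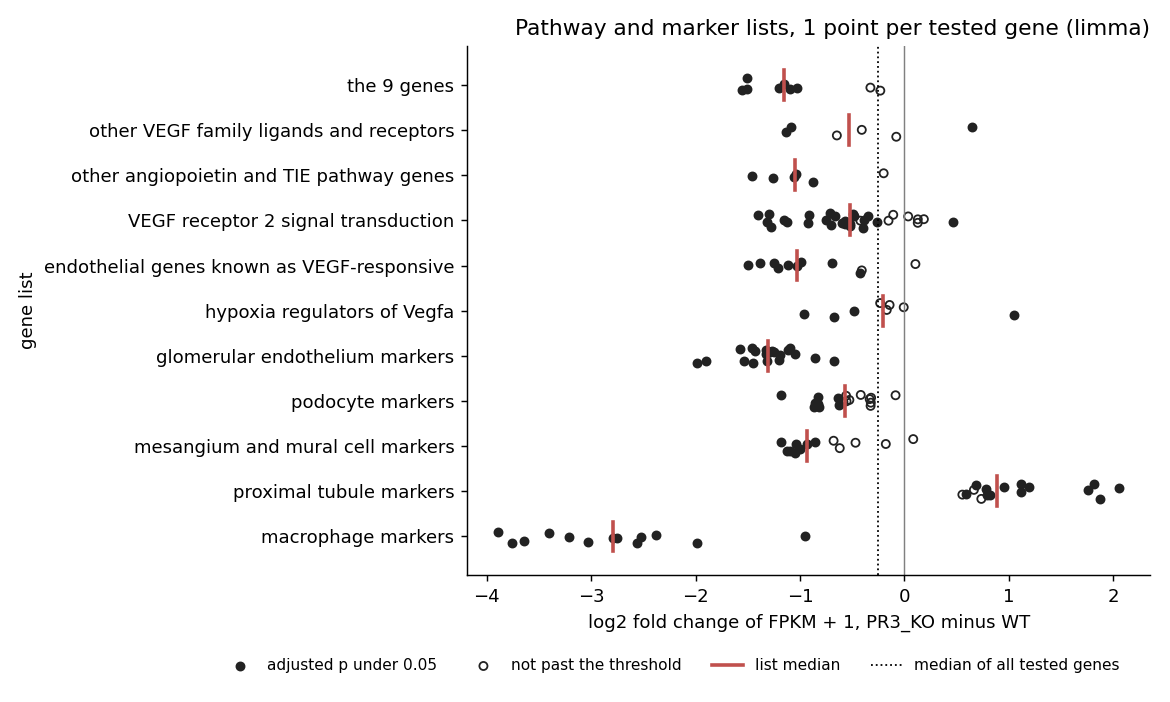
Log2 fold change of FPKM + 1, PR3_KO minus WT, of every tested gene (points) of the pathway and cell type lists drawn. Markers of thick limb, distal tubule and collecting duct are not drawn. Filled points passed adjusted p under 0.05 in limma. Red bars are list medians and the dotted line is the median of all tested genes, -0.26. The 9 genes and the endothelial markers lie mostly between -2 and -0.6, most macrophage markers lie lower, with Cd14 at -0.95 and Csf1r at -1.99 inside that range, and all 16 proximal tubule markers above 0.

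Of the other cell types, 8 of 18 podocyte markers fell and 0 rose (limma; median -0.57), close to the 41.1% lower over all tested genes, and 5 fell with median-of-ratios scaling, against 25.1%. Among the 8 were Dach1 and Cd2ap at log2 fold changes of -0.86 and -0.62. Of 13 markers of mesangium and mural cells 8 fell and 0 rose (limma, median -0.93), among them Mcam, which endothelium also expresses, and Acta2, smooth muscle actin, at -1.04 and -0.996. Over all tested genes 41.1% fell, and with median-of-ratios scaling 7 of the 13 fell, against 25.1%. Of 16 proximal tubule markers, 13 rose and 0 fell (limma, median 0.88), with the transporter genes Slc22a8 and Slc5a2 at 1.87 and 1.75. Over all tested genes 11.7% rose, and with median-of-ratios scaling 15 of the 16 rose, against 22.5%. Of 8 markers of thick limb, distal tubule and collecting duct, 3 fell and 0 rose (limma; median -0.45), again near the share over all genes, among them Kng2 and Aqp2 at -0.67 and -1.21. The macrophage genes Aif1 and Lyz2 were at -3.21 and -2.75.

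The profiles most like those of Kdr and Vegfa over the 6 libraries were found by the Euclidean distance between log2(FPKM + 1) values, each profile less its own mean, among 12078 named genes. For Kdr the nearest was Eng, which encodes the endothelial co-receptor endoglin, at a distance of 0.151, followed by Cd38, Rasgrp3, Tbx3 and Bcl6b at 0.214 to 0.292. Eng was at 125.81, 214.26 and 202.02 FPKM in PR3_KO and 476.97, 568.77 and 423.64 FPKM in WT, so that PR3_KO 1 lay apart as it did for Kdr. Nrp1 and Flt1 ranked 10 and 15 in closeness to Kdr, Ptprb, Tek and Tie1 ranked 236, 240 and 259, and Vegfa ranked 4098. For Vegfa the nearest were Lcat, Ntng2, Hcar1, Mapk8ip3 and Lmo7 at 0.112 to 0.187. Of these, Lcat and Hcar1 averaged only 0.907 and 1.61 FPKM in PR3_KO and 1.38 and 2.18 FPKM in WT. At such levels this scale understates changes. Among the 9 genes Angpt1 was the closest to Vegfa, at a distance of 0.442 and rank 817, and Kdr the farthest, at 1.53. These distances describe 6 libraries that share their genotype groups and scaling.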

How the data were processed

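RNA from glomeruli was purified with magnetic oligo(dT) beads before sequencing by DNBSEQ, per the labels' protocols. Bowtie2 and the build GRCm38.p6 are named in the submitters' processing notes. The sources used here do not give the aligner's version, the quantifier, annotation, strandedness or filters. The authors deposited FPKM, per the file headers, given to 2 decimals. FPKM shifts for all genes when a few abundant transcripts take more of a library.

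Of 22064 listed IDs, 18822 had values, and 18770 matched a symbol in RefSeq's GRCm38.p6 gene table. limma 3.58.1 (statmod 1.5.0, R 4.3.3; trend and robust) was fitted to log2(FPKM + 1) with a single term, genotype, over every gene averaging 1 FPKM or more. P-values were adjusted by Benjamini-Hochberg over all tested genes, at 0.05. The fit was also run on simulated data in which few genes changed and errors were independent. The real data differ in this, so that run does not vouch for the calls here. Ratios and levels relative to markers (mean log2 of the list) were compared by exact permutation. Analyses used Python 3.11.15, pandas 2.3.3, numpy 2.4.6, scipy 1.17.1 and matplotlib 3.10.9. Promoters and their build came from RefSeq.

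Genes named were the 9, up to 4 genes with the smallest adjusted p of each pathway list (2 of marker lists), and the 5 profiles nearest to Kdr and Vegfa, predicted genes left out. A gene that this rule names is not reported here. Other genes are added for their role, with their values seen. Members and lists were chosen with earlier results of these data known.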

Additional observations from a re-analysis of the deposited data

How the results depend on the processing

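Alternatives were a pseudocount of 0.1, no filter, a filter at a mean of 5 FPKM (which drops Angpt1), median-of-ratios scaling, limma without trend or robust moderation, the replicate block, and leaving out each library in turn. Leaving out PR3_KO 1 and WT 2 together, the ratios and the GGAA search named as such, and levels relative to podocyte markers were chosen after seeing the data. The count of the 9 genes that fell was 7 in all of these except 6 without PR3_KO 1, where Angpt2 was lost (-0.79), and 0 rose in any. Kdr ranged from -1.69 to -1.18, Flt1 from -1.64 to -1.22, Nrp1 from -1.65 to -1.24, Tek from -1.28 to -0.94, Tie1 from -1.20 to -0.83 and Ptprb from -1.23 to -0.90, all past the threshold in limma. Vegfa ranged from -0.49 to -0.02 and Angpt1 from -0.33 to -0.05, never past it (lowest adjusted p in limma = 0.0831 and 0.129). The smallest falls of Kdr, Flt1, Nrp1, Angpt2 and Vegfa came without PR3_KO 1 and WT 2 together. Those of Tek, Tie1, Ptprb and Angpt1 came with median-of-ratios scaling. Without that pair of libraries each of the 9 genes fell less than in the main fit.

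Median-of-ratios scaling gave 12 lower and 5 higher for genes of VEGF receptor 2 signalling, and over all genes 3113 lower and 2789 higher against 5091 and 1454. The number of all genes that rose was 917 without PR3_KO 1 and 943 without PR3_KO 3. For VEGF-responsive genes the count that fell was 5 to 10 when 1 library was left out, 5 without PR3_KO 1 and WT 2, and 6 with median-of-ratios scaling. That scaling gave 5 podocyte markers lower, against 8. Levels relative to endothelial markers and 4 ratios were rerun with the pseudocount of 0.1 and without each library: Vegfa stayed higher by 0.84 to 1.11, Angpt1 by 1.01 to 1.14 and Tie1 by 0.13 to 0.30, and Angpt2 to Angpt1 lower (-0.89 to -0.61). The ratios of Vegfa to Kdr and Angpt1 to Tek were not rerun.

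With the replicate number as a block (paired fit), 7 of the 9 genes fell. Same-numbered libraries correlated in their deviations at 0.0677, 0.27 and -0.0866, and PR3_KO 1 correlated best with WT 3 (0.322), so the numbers were not taken as pairs.

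FPKM carry no counts, so counting error is unknown and was not set against the differences of low genes such as Angpt1.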
